A study of Mus musculus with 8 samples.

Results

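Gldn, Shc2 and Tmem71 were 3 protein-coding genes of the 19642 in the count table, and 3 of the 14214 that were tested. They were chosen by the contrast described here, for a large rise in every N-LKO liver from near-absent or low WT levels. Their levels and fold changes are therefore a description and carry no test. RNA-seq libraries were made from whole liver of 4 WT and 4 N-LKO mice, 1 library per mouse. N-LKO mice lack NgBR, the protein of the Nus1 gene and a subunit of the cis-prenyltransferase that makes dolichol for protein glycosylation, in liver. Their loxP-flanked NgBR alleles were cut by a Cre under the albumin promoter, which is active in hepatocytes, so that other liver cells keep the gene. The study used male mice of the C57BL6 background, and both groups ate chow diet (CD). The titles, the series' design text and the study's own legend for chow-fed livers say 8 weeks, while the treatment entries say 16 weeks. The labels call the controls WT and do not say whether they carried loxP or Cre.

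Gliomedin, the product of Gldn, is a secreted olfactomedin-domain protein of myelinating Schwann cells, where it gathers axonal cell adhesion molecules and sodium channels at the nodes of Ranvier. Shc2 (also called Sck or Sli) is a Shc family adaptor that docks on phosphorylated receptor tyrosine kinases and passes the signal through Grb2 and Sos to Ras, and it is best known from neurons. Tmem71 encodes a transmembrane protein whose function is little known. None of the 3 is a classical hepatocyte gene.

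The start regions of Gldn and Shc2 are printed because both genes went from nearly no reads to a measurable level, so the DNA just before their starts is the sequence a reader may want to inspect. Each holds 250 bases before and 50 after the RefSeq start in GRCm38.p6, written 5′ to 3′ on the gene's own strand. Gldn lies at chr9:54286236-54286535 on the plus strand, and the capitals mark the letters TGACTCA, a match to the AP-1 motif TGANTCA. Shc2 lies at chr10:79637869-79638168 on the minus strand, and the capitals mark CATTCC, the TEAD motif GGAATG read on the opposite strand.
Gldn: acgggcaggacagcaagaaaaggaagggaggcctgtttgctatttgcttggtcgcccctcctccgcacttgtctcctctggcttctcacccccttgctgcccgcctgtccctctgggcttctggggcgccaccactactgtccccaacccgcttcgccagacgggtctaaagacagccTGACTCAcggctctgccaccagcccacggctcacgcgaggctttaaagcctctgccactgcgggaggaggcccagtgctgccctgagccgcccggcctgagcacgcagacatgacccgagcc
Shc2: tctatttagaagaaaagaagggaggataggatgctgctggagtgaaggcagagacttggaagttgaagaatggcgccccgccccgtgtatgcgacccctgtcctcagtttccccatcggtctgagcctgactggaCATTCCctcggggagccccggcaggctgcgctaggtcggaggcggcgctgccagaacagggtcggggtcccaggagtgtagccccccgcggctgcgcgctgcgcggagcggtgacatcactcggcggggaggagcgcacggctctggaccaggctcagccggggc
The Gldn match began at offset -72 from the start and the Shc2 match at offset -115. No AP-1 match was found in the Shc2 window and no TEAD match in the Gldn window. Both motifs were searched on both strands, and 7.81% of 32851 mouse start regions of this length held the AP-1 letters and 14.7% the TEAD letters. The cAMP response element TGACGTCA, the TATA box TATAAA and the endoplasmic reticulum stress element were also searched, and none was found in either window. These were found in 1.79%, 13.6% and 0.119% of all start regions. The Gldn window was 65.0% G and C with 17 CpG dinucleotides and the Shc2 window 65.7% with 24, against medians of 52.7% and 7 over all windows. A match of letters is a description and not a binding site.

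Gldn (ENSMUSG00000046167.5) spans bases 54286486 to 54341786 of chromosome 9 (GRCm38, plus strand), a gene of 55.3 kb with 1 annotated transcript of 10 exons and 1647 coding bases. The WT livers had 4, 2, 3 and 3 Gldn reads in replicates 1 to 4. The N-LKO livers had 659, 280, 627 and 370. The groups were far apart, since the lowest N-LKO liver held 86.5 times the level of the highest WT liver in CPM (reads of a gene relative to the library total, after TMM scaling of the libraries).

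In CPM, Gldn was at 0.214, 0.125, 0.19 and 0.166 in the WT livers, and at 37.4, 18.5, 41.6 and 25.1 in the N-LKO livers. The mean went from 0.174 ± 0.0379 to 30.6 ± 10.7 CPM (SD, n = 4). The WT values lay beside the 3-read floor of these libraries, 0.16 to 0.204 CPM, so the WT level is known only roughly and the fold with it. Summed over each group, 12 WT reads stood against 1936 N-LKO reads, a ratio of 177 after scaling, with a 95% exact interval of 101 to 343 that covers counting error only. The fitted log2 fold change was 7.39 (SE 0.38), the highest of all tested genes, and it stayed between 7.21 and 7.58 when any 1 mouse was left out. This SE was worked back from the edgeR F statistic and understates the counting error of 12 WT reads. Among the N-LKO livers Gldn was also the most uneven of the 3 genes, with a coefficient of variation of 34.9% and 2.25 times as much in the highest liver as in the lowest.

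Shc2 (ENSMUSG00000020312.12) spans bases 79618051 to 79637918 of chromosome 10 (minus strand), a gene of 19.9 kb with 1 coding transcript of 13 exons and 1719 coding bases and 2 transcripts that retain introns. The WT livers had 2, 0, 1 and 1 Shc2 reads. The N-LKO livers had 22, 21, 30 and 24. All WT livers were under the 3-read floor, and all N-LKO livers were above every WT liver, but at a low level.

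Shc2 was at 0.107, 0, 0.0634 and 0.0552 CPM in the WT livers and at 1.25, 1.39, 1.99 and 1.63 CPM in the N-LKO livers. The mean went from 0.0564 ± 0.0439 to 1.56 ± 0.326 CPM (SD, n = 4). The summed reads were 4 in WT and 97 in N-LKO, a ratio of 26.6 with a counting interval of 10.1 to 99.5. The fitted log2 fold change of 4.57 (SE 0.45) ranked second of all tested genes, but it rests on a WT level of nearly nothing. The SE was worked back from the edgeR F statistic and understates the counting error of 4 WT reads. The log2 fold change was 4.23 without WT replicate 2, which had no read, and 5.03 without WT replicate 1, which had the most.

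Tmem71 (ENSMUSG00000036944.6) spans bases 66526212 to 66561103 of chromosome 15 (minus strand), a gene of 34.9 kb with 1 transcript of 10 exons and 861 coding bases. It differed from the other two in being read in every WT liver, with 54, 33, 28 and 36 reads. The N-LKO livers had 163, 107, 127 and 158 reads. The groups again did not overlap, and the lowest N-LKO liver held 2.45 times the CPM of the highest WT liver.

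Tmem71 was at 2.89, 2.06, 1.78 and 1.99 CPM in WT and at 9.24, 7.06, 8.43 and 10.7 CPM in N-LKO. The mean went from 2.18 ± 0.487 to 8.86 ± 1.53 CPM (SD, n = 4). The log2 fold change was 2.01 (SE 0.19), a 4.04-fold rise, and the summed reads gave a ratio of 4.03 with a counting interval of 3.36 to 4.86. Its N-LKO livers were the most even of the 3 genes, with a coefficient of variation of 17.3%, against 20.8% for Shc2. The highest N-LKO liver was replicate 3 for Gldn and Shc2 and replicate 4 for Tmem71. The lowest was replicate 2 for Gldn and Tmem71 and replicate 1 for Shc2.

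**Figure D1:**
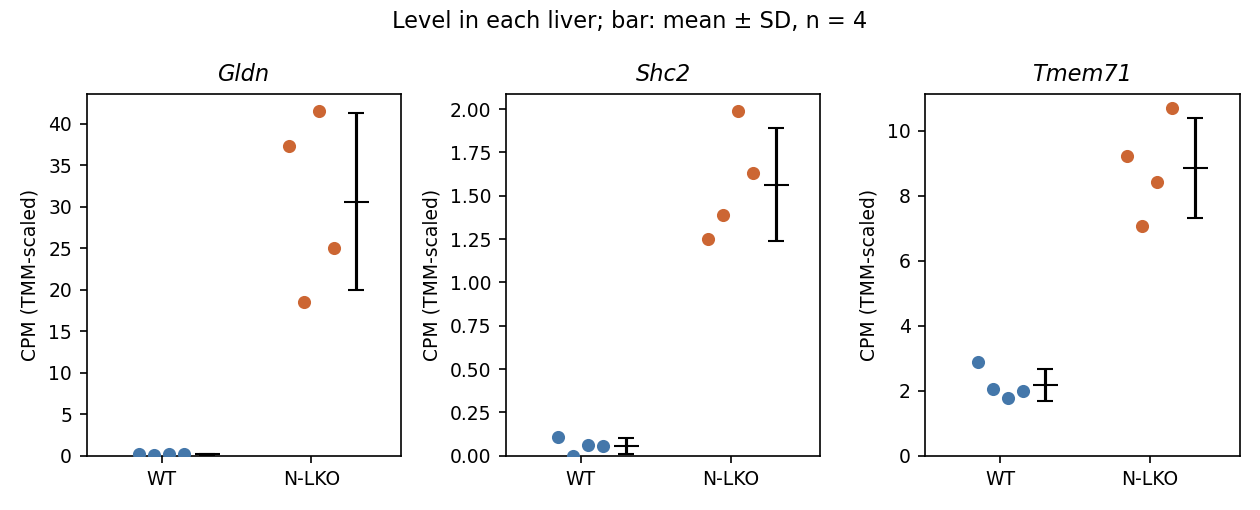
Level of Gldn, Shc2 and Tmem71 in each liver, in CPM on a linear axis from 0 with a separate scale for each gene. Points are livers, blue for WT and orange for N-LKO, and bars are the mean ± SD of 4 livers. In each panel all N-LKO points lie above all WT points, with N-LKO means of 30.6, 1.56 and 8.86 CPM.

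The size of the rise depended on whether it was counted as a ratio or as added RNA. Gldn gained 30.5 CPM, Tmem71 6.69 CPM and Shc2 1.51 CPM. Per kb of exon, which allows levels of different genes to be roughly set side by side, Gldn went from 0.0373 to 6.58 CPM per kb, Shc2 from 0.0104 to 0.288 and Tmem71 from 0.729 to 2.97. Shc2 thus had a higher fold than Tmem71 and a smaller gain per kb. Exons of all annotated transcripts were counted, so Shc2 was divided by 5.43 kb although its coding transcript is 3243 bases. This lowers Shc2 beside Gldn and Tmem71, which have 1 transcript each. On that scale 71.4% of tested genes had a lower mean than Gldn in N-LKO livers, against 0.0573% in WT. For Tmem71 these shares were 52.2% in N-LKO and 20.5% in WT. For Shc2 they were 7.06% and 0%, so that Shc2 stayed among the lowest tested genes in the N-LKO livers. The WT shares of Gldn and Shc2 were fixed by the filter on low counts, which removes genes near-empty in both groups.

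Gldn and Shc2 passed the filter on low counts only through their N-LKO livers, and had to differ for that reason. All 3 genes were among those called higher, as the choice of genes fixed, and 117 of 14214 genes were called in that direction (0.823%, edgeR adjusted p under 0.05). Either direction held 148 genes (1.04%). All 3 had every N-LKO liver above every WT liver, as had 4.2% of the tested genes (597). The median log2 fold change over all tested genes was -0.0033, with a median SE of 0.141. Tmem71 had the 39th highest log2 fold change of the tested genes and the 31st among the called genes. The called genes just above it were Selenbp2 at 2.02 and Emp1 at 2.04, and those just below were Mmp23 and Crispld2, both at 1.99, and Gpx3 at 1.94.

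**Figure D2:**
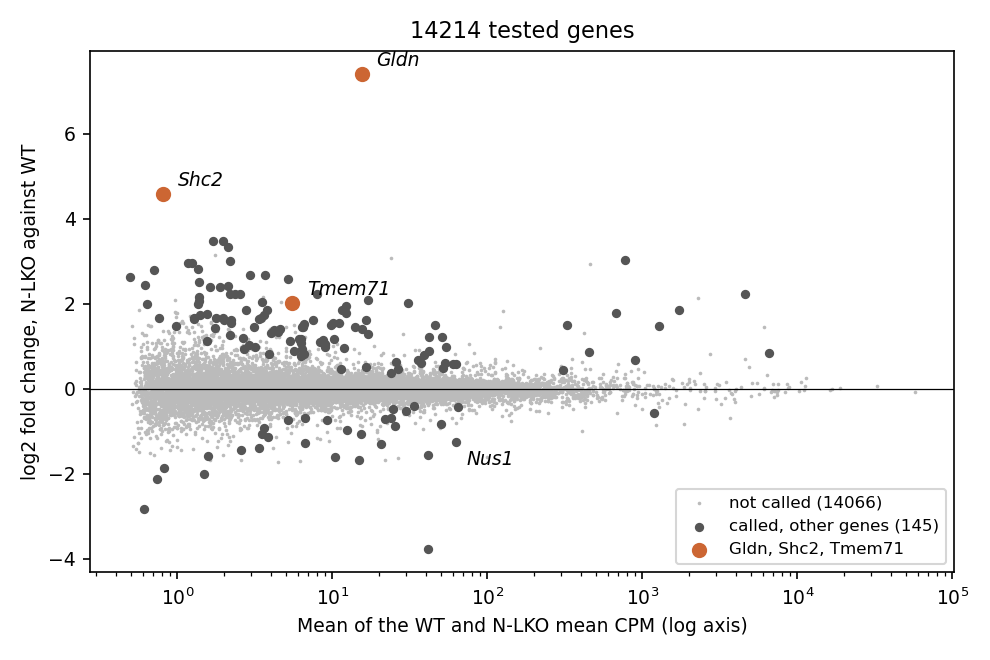
Log2 fold change of N-LKO against WT for the 14214 tested genes, against the mean of both group means in CPM on a log axis. Small grey points were not called, dark points are the other called genes, and orange points are Gldn at 7.39, Shc2 at 4.57 and Tmem71 at 2.01. Gldn stands above every other gene, Shc2 is next, and Tmem71 lies within the cloud of other called genes.

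The gap from Gldn to the rest was wide. After Gldn and Shc2 the called genes with the highest log2 fold change were Gpnmb and Mmp12, both at 3.47, and Igf2bp3 at 3.34. Of the 31 called genes that rose at least as much as Tmem71, 28 were others. Gldn and Shc2 were the 2 tested genes with at most 4 reads in every WT liver and at least 21 in every N-LKO liver, limits set from their own reads after these were seen. Genes this empty in WT enter the test only where N-LKO livers are high, so this says nothing of how many genes are as empty in WT.

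The targeted gene gave the labels their check. Nus1 was at 82.0, 90.4, 90.5 and 89.7 CPM in the WT livers and at 33.3, 36.2, 38.7 and 38.7 CPM in the N-LKO livers. It fell by 1.26 on the log2 scale (SE 0.075, edgeR adjusted p = 3.06e-05), to 41.7% of the WT mean. Library totals were 14688404 to 18585412 reads, and WT and N-LKO totals overlapped. Hepatocyte markers (albumin, apolipoprotein and others, 8 genes) summed to 78100 to 102000 CPM in WT and 74900 to 92500 CPM in N-LKO, and none of the 8 was called, so the tissue label held in both groups.

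Overlap with other genes was looked up in GENCODE M21, since the sources used here do not say whether the counting used strand. Gldn shares 15085 bases with Gldnos, an antisense gene on the minus strand from 54268578 to 54301570, but no exonic base of one lies in an exon of the other. Gldnos was not among the counted genes under that name, so its reads could not be looked at. Shc2 shares 63 bases with Gm47163, a noncoding RNA annotated as a bidirectional promoter RNA, which starts on the plus strand at 79637856. All of them are exonic in both, 1.16% of the Shc2 exons. The Shc2 start region printed above lies within Gm47163. Gm47163 had 2 reads over the WT livers and 11 over the N-LKO livers, too few to be tested. If strand was not used, reads in those 63 bases cannot be told apart. Tmem71 overlaps no annotated gene. The reads of all 3 genes were whole numbers in every liver, whereas 47.7% of the genes in the table had whole numbers in every liver.

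The genes beside Gldn, Shc2 and Tmem71 were not used to choose them and were tested. Of 31 neighbours (the 5 nearest counted genes on each side and Gm47163), 21 were tested and none was called by edgeR, with 2 at an unadjusted p under 0.05. With DESeq2, 1 was called. The 21 had a median log2 fold change of 0.048, against -0.0033 for all genes. Around Gldn, Dmxl2 began 23.4 kb beyond its end and had a log2 fold change of 0.26 (SE 0.10, adjusted p = 0.32). Slc35f2, a solute carrier family member 468 kb before Gldn, was the neighbour with the highest value, at 1.03 ± 0.528 CPM in WT and 3.33 ± 1.03 CPM in N-LKO (SD, n = 4). Its log2 fold change was 1.67 (SE 0.35, edgeR adjusted p = 0.058), and it was called with DESeq2, with the replicate block and without WT replicate 1. Slc35f2 had 7 to 30 reads in WT and 35 to 84 in N-LKO livers. It passed the filter on low counts only through its N-LKO livers, so these calls are not support.

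Around Shc2 the 7 tested neighbours lay between -0.16 and 0.187, with Mier2, a chromatin protein gene 62.9 kb away, at the upper end. C2cd4c, 4.03 kb away, had at most 4 reads in any liver and was not tested. Around Tmem71 the 9 tested neighbours lay between -0.352 and 0.202, and the nearest, Phf20l1, 16.5 kb away, had a log2 fold change of 0.05 (SE 0.10). None of the neighbours of Shc2 or Tmem71 reached an unadjusted p under 0.05. Shc2 lies on the same chromosome as Nus1, 27.2 Mb away. Of 158 other genes tested between them 2 were called (1.27%), Bicc1 and Col6a2, and of 709 on the whole chromosome 5 were called (0.705%), against 1.04% of all tested genes.

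**Figure D3:**
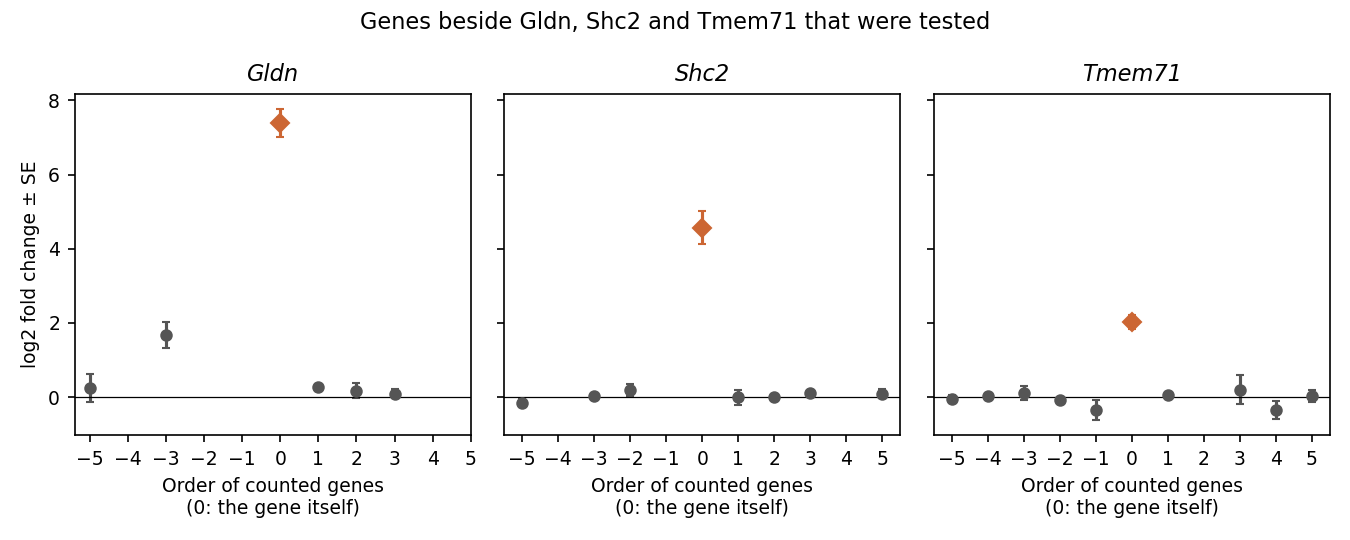
Log2 fold change ± SE of the tested genes beside Gldn, Shc2 and Tmem71 (grey circles), in their order along the chromosome, with the gene itself as an orange diamond at 0. Positions with no point were not tested. Apart from Slc35f2 at 1.67, the neighbours lie between -0.352 and 0.26.

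Related genes were taken from 6 lists, and of 54 tested genes in them 3 were called higher and none lower (5.56%, against 1.04% of all genes). Gliomedin acts with axonal and Schwann cell proteins at the node of Ranvier. Of 13 genes for these partners 7 were in the table and 4 were tested, with none called and a median log2 fold change of -0.13. Cntnap1, the axonal Caspr protein beside the node, was at 28.5 ± 2.07 CPM in WT and 18.2 ± 5.03 CPM in N-LKO, a log2 fold change of -0.65 (adjusted p = 0.113), and it was called with DESeq2 and without N-LKO replicate 2. Ank3, the scaffold ankyrin-G, was at 0.11 (adjusted p = 0.815), and Dag1, dystroglycan, at 0.13 (adjusted p = 0.54). Nrcam, the adhesion molecule that gliomedin binds, was not among the counted genes under that name. Its other binding partner, neurofascin (Nfasc), had 2 to 22 reads in WT and 2 to 8 in N-LKO livers and was not tested.

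The proteases that release gliomedin did not move past the test. Furin had a log2 fold change of -0.09 (adjusted p = 0.713) and Bmp1 of -0.04 (adjusted p = 0.897). Of 12 other olfactomedin-domain genes 6 were tested, with a median of 0.157, and 1 was called. This was Olfml3, a secreted matrix protein, which went from 2.30 ± 0.826 to 6.07 ± 1.81 CPM, a log2 fold change of 1.39 (SE 0.28, edgeR adjusted p = 0.0429). That call was lost in 10 of 16 alternative settings, among them each fit without WT replicate 1, 2 or 3 or N-LKO replicate 1, 2 or 3, with adjusted p from 0.000212 to 0.128 over the settings. Olfml1 was at 0.25 (adjusted p = 0.527).

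The Shc family and the partners that carry its signal were 18 genes, of which 16 were tested and none was called, with a median of 0.06. Shc1, the widely expressed family member, was at 41.6 ± 2.41 CPM in WT and 42.4 ± 2.5 CPM in N-LKO (log2 fold change 0.02, SE 0.07, adjusted p = 0.93). Its sign turned with library totals alone. In N-LKO livers Shc1 was at 7.5 CPM per kb of exon and Shc2, after its rise, at 0.288 CPM per kb, with exons of all annotated transcripts counted. Grb2, the adaptor that links Shc proteins to Sos, was at 0.08 (adjusted p = 0.665). The docking protein Gab2 was at 0.66 (adjusted p = 0.198) and its relative Gab1 at -0.26 (adjusted p = 0.369).

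Of 17 receptor tyrosine kinases that Shc proteins read, 13 were tested and 2 were called, both higher, with a median of 0.0016. Pdgfra, the receptor for platelet-derived growth factors on fibroblasts, went from 8.56 ± 1.17 to 22.6 ± 4.86 CPM (log2 fold change 1.40, SE 0.16, edgeR adjusted p = 0.00214). Fgfr1, a fibroblast growth factor receptor, went from 3.78 ± 0.445 to 8.47 ± 1.69 CPM (log2 fold change 1.16, SE 0.17, adjusted p = 0.00844). Both calls held in all 16 alternative settings. Pdgfrb was at 1.04 (adjusted p = 0.0688, called with DESeq2) and Ntrk2, the receptor for brain-derived neurotrophic factor, at 1.36 (adjusted p = 0.211).

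Genes that the Ras and ERK pathway switches on, and its feedback inhibitors, were 16, of which 13 were tested and none was called, with a median of 0.02. Their summed level was 119.5 to 165.4 CPM in WT and 98.7 to 114.5 CPM in N-LKO, lower in every N-LKO liver than in any WT liver, as were 3.32% of single genes (472 of those tested). Dusp6, the ERK phosphatase, was at 26.2 ± 7.84 CPM in WT and 14.1 ± 2.26 CPM in N-LKO, a log2 fold change of -0.89 (adjusted p = 0.0763), and was called with DESeq2 and without WT replicate 1. Egr1, an immediate early transcription factor, went from 30.3 ± 11.3 to 19.2 ± 6.05 CPM, a log2 fold change of -0.66. Phlda1 went from 35.2 ± 11.1 to 23.1 ± 4.49 CPM, a log2 fold change of -0.61, and neither was called in any setting. Dusp6, Egr1 and Phlda1 held most of the summed level in WT, so its fall is largely theirs. The list median of 0.02 shows no fall across the list.

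**Figure D4:**
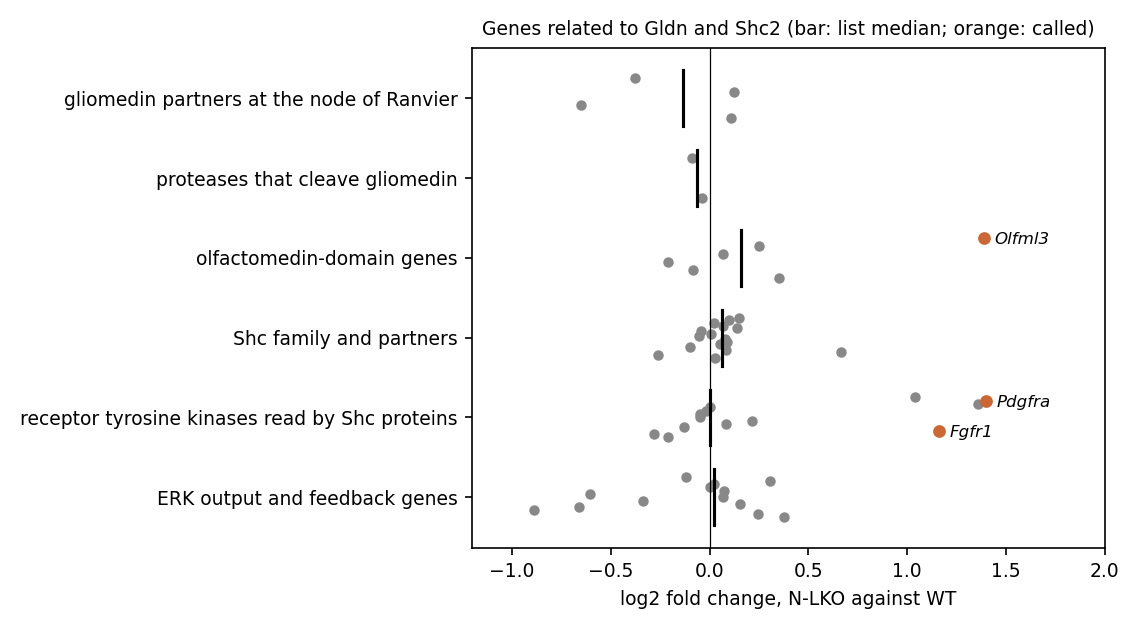
Log2 fold change of N-LKO against WT for the tested genes of 6 lists related to Gldn and Shc2. Each point is a gene, black bars are list medians, and orange points with names are the 3 called genes, Olfml3 at 1.39, Pdgfra at 1.40 and Fgfr1 at 1.16. The list medians lie between -0.13 and 0.157.

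Whole liver holds many cell types, and in bulk tissue fewer or more cells of a type and less or more RNA per cell cannot be told apart. Markers of other cell types were therefore set beside the rises. Schwann cells are where gliomedin is best known. Of 12 Schwann cell markers 8 were in the table and 5 were tested, with 1 called higher. This was Ncam1, a neural cell adhesion molecule, with 1 to 3 reads in WT and 11 to 16 in N-LKO livers and a fitted log2 fold change of 2.63, but it passed the filter on low counts only through its N-LKO livers and had to differ, so its call is not support. Mbp, myelin basic protein, had 9 to 15 reads in WT and 12 to 25 in N-LKO livers, a log2 fold change of 0.84 (adjusted p = 0.239). The list summed to 123 to 211 CPM in WT and 114 to 151 CPM in N-LKO, and most of that was Erbb3, which liver also expresses. Sox10, S100b, Cdh19 and Foxd3 were not among the counted genes under these names, so they could not be looked at.

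The sums of 4 other lists were higher in every N-LKO liver than in any WT liver, as were 4.2% of single genes, and the calls among them stand beside 0.823% of all tested genes called higher. Fibroblast markers summed to 162 to 222 CPM in WT and 243 to 347 CPM in N-LKO, with 4 of 11 tested genes called higher and 1 lower. Most of that sum was Dcn, at 143 ± 18.9 CPM in WT and 193 ± 33.9 CPM in N-LKO. Dcn was not called (log2 fold change 0.43, edgeR adjusted p = 0.185). The 5 calls became 2 without WT replicate 4, and 3 without WT replicate 2, N-LKO replicate 1 or N-LKO replicate 3. Lum, the matrix proteoglycan lumican, was at 1.46 (adjusted p = 0.0026) and Postn, periostin, fell by 1.27 on the log2 scale (adjusted p = 0.0167), a call lost without WT replicate 4 or N-LKO replicate 1. Cholangiocyte markers summed to 36.3 to 62.8 CPM in WT and 73.4 to 157 CPM in N-LKO, with 2 of 5 tested genes called. These were Epcam at 1.55 (adjusted p = 0.0293) and Spp1 at 1.51 (adjusted p = 0.0353), calls that were lost in 8 and 9 of 16 settings. Both were lost without WT replicate 1, 2 or 4 or N-LKO replicate 2 or 3, Epcam also without WT replicate 3 and Spp1 also without N-LKO replicate 4.

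Lipid-associated macrophage markers summed to 37.1 to 57.2 CPM in WT and 61.8 to 143.8 CPM in N-LKO, with 3 of 6 tested genes called higher, Gpnmb, Mmp12 and Spp1. Gpnmb and Mmp12 passed the filter only through their N-LKO livers, and Cd9 was at -0.01 and Fabp5 at -0.04. Spp1 is in both this and the cholangiocyte list, and it went from 23.9 ± 6.99 to 68.1 ± 28.1 CPM. Without Spp1, a choice made after seeing the data, the macrophage sums overlapped, at 20.5 to 28.1 CPM in WT and 24.4 to 38.5 CPM in N-LKO. The cholangiocyte sums without it were 20.2 to 30.4 and 31.0 to 51.6 CPM. Mesothelial markers summed to 3.58 to 4.8 CPM and 5.22 to 6.18 CPM, with 1 of 3 tested genes called, Wt1 at 1.75 (adjusted p = 0.0129), which was not called with the replicate block or without WT replicate 4. Wt1 had 8 to 18 reads in WT and 31 to 49 in N-LKO livers. It too passed the filter only through its N-LKO livers, so its call is not support. Without Wt1 the mesothelial sums overlapped, at 2.62 to 4.08 CPM in WT and 2.64 to 3.8 CPM in N-LKO, and Upk3b was at -0.37 (adjusted p = 0.59). N-LKO replicate 3 was highest for Gldn, for Shc2 and for the fibroblast, cholangiocyte and macrophage sums. N-LKO replicate 2 was lowest for Gldn and Tmem71 and next to highest in those 3 sums. N-LKO replicate 1 was next to highest for Gldn and Tmem71 and the lowest N-LKO liver in those 3 sums. Stellate cell markers had 2 of 9 tested genes called, both lower, against 31 of 14214 tested genes called lower. These were Colec10 at -1.31 and Ecm1 at -0.83, and 1 call remained without WT replicate 4 or N-LKO replicate 3. Pdgfrb at 1.04 and Des at 0.63 went up without a call (list median -0.08). No Kupffer cell or sinusoidal endothelial gene was called, with all 7 tested in each. None was called in the T and NK cell (2 of 12 tested) and B cell (2 of 7 tested) lists. The neutrophil (2 of 6 tested) and nerve and muscle (1 of 9 tested) lists also had none. Where most genes of a list were not tested, this says little of those cells. The nerve and muscle sum, from 2 of 9 genes, was lower in every N-LKO liver (4.42 to 8.01 CPM) than in any WT liver (8.07 to 9.19 CPM), as were 3.32% of single genes. It was nearly all Syt1, at 8.58 ± 0.443 CPM in WT and 5.92 ± 1.52 CPM in N-LKO. Syt1 was not called (edgeR adjusted p = 0.185) except without N-LKO replicate 4, so the sum speaks for 1 gene and not for a cell type. The part of these cell types in the rises of Gldn, Shc2 and Tmem71 was not tested.

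**Figure D5:**
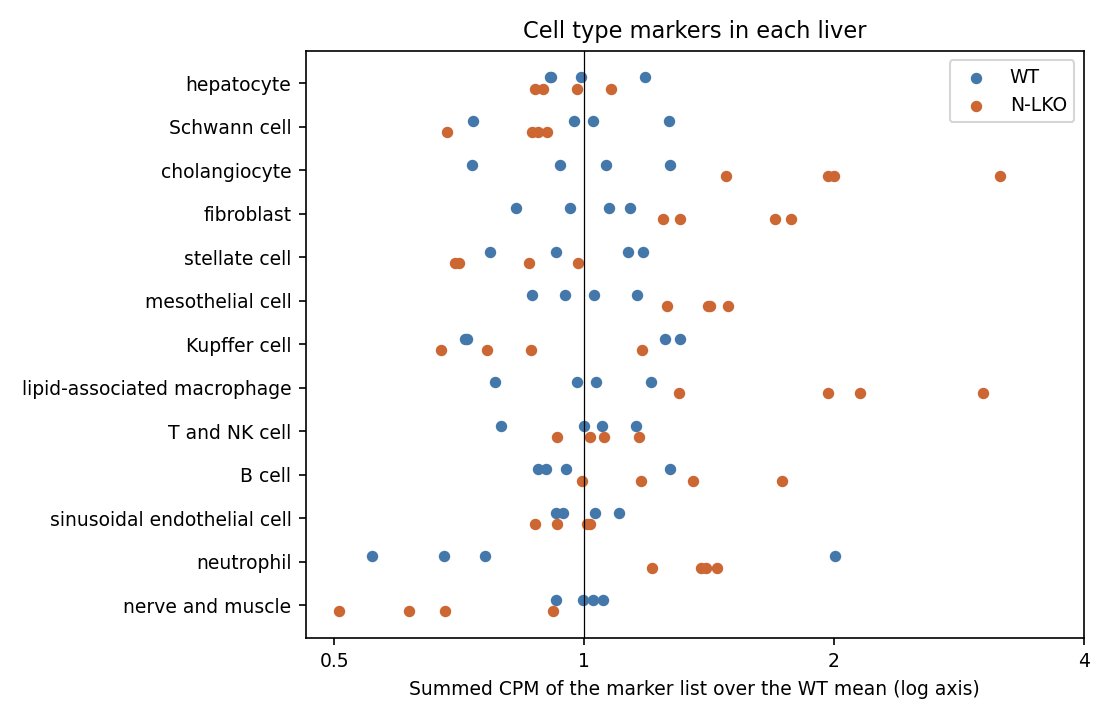
Summed CPM of 13 cell type marker lists in each liver, divided by the WT mean of the list, on a log axis. Blue points are WT livers and orange points N-LKO livers. The groups do not overlap upward for the cholangiocyte, fibroblast, mesothelial and lipid-associated macrophage lists. They do not overlap downward for the nerve and muscle list, whose sum is nearly all Syt1. The hepatocyte and Schwann cell lists overlap.

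The genes whose log2 CPM followed each of the 3 most closely over the 8 livers were listed by Pearson correlation. The difference between the genotypes is part of every such value, so they are given without a test. For Gldn they were led by Cyp1b1 (r = 0.996), Htra3 and Shc2 (both 0.988) and Colec12 (0.986). For Shc2 they were Gldn (0.988), Cyp1b1 (0.985), Shisa3 (0.984), Adamtsl2 and Dpt (both 0.983). For Tmem71 they were Ttpa (0.988), Htra3 (0.987), Cdkn2c (0.984), Tmed7 (0.98) and Gldn (0.976). Cyp1b1 encodes a cytochrome P450, Htra3 a secreted protease, Cdkn2c a cyclin-dependent kinase inhibitor and Ttpa the hepatocyte transfer protein for vitamin E.

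Once the genotype means were removed, the 3 genes correlated less with each other. The correlation of the deviations over the 8 livers was 0.458 for Gldn and Shc2, against 0.988 with the means left in. It was 0.351 for Shc2 and Tmem71 and 0.324 for Gldn and Tmem71, against 0.973 and 0.976. In the WT livers Gldn had at most 4 reads and Shc2 at most 2, so their deviations there are largely counting error. These values therefore cannot show whether the genes vary together from liver to liver. The genes closest to each by deviations alone were other genes. For Gldn these were led by Zbtb14 (0.981), for Shc2 by Ambra1 (0.987) and for Tmem71 by Rab2b (0.987), none of them called between the genotypes. With rank correlation none of the top 5 genes of Gldn, Shc2 or Tmem71 over the 8 livers stayed among the top 5. With a prior count of 0.5 none of the 5 genes closest to Shc2 by deviations stayed, so Ambra1 depends on that setting.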

How the data were processed

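The authors deposited 1 table of expected counts for liver RNA of 4 WT and 4 N-LKO mice, in which a gene's reads are estimates and can be fractions. The study's methods name removal of rRNA, read trimming, TopHat and cuffdiff, while the submitters' processing notes name STAR, Partek and the build mm9, and the labels name a small RNA library kit. The table's coordinates are those of GRCm38 (19064 of 19193 matched genes share the GENCODE M21 start). The program that gave the counts, its annotation and its strand setting are not given in the sources used here. All 8 columns were mapped by name.

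Counts were rounded and tested with edgeR 4.0.16 (R 4.3.3) by quasi-likelihood, with filterByExpr (minimum count 10, minimum total 15), TMM scaling and Benjamini-Hochberg adjusted p under 0.05 over 14214 genes. Log2 CPM used a prior count of 2. Settings tried as alternatives were RLE scaling, library totals, no filter, a filter of at least 10 counts in every mouse, replicate blocks, DESeq2 1.42.0, limma-voom (limma 3.58.1), a prior count of 0.5, rank correlation and each mouse left out. The scripts were tested on simulated data. Intervals are exact at 95% and cover counting error only. P-values measure the spread between mice, which the titles call biological replicates.

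Named were the 3 genes, their overlapping and nearest genes, Nus1, the called and lowest-p genes of each list, the genes most like each of the 3 and called genes with as large a rise; Shc1, Grb2, Nfasc, Crispld2, Mmp23, Gpx3 and the marker genes stand outside that rule and were chosen after their values were seen. The 3 genes, the lists and the motifs were chosen with earlier results of these data known. Promoter sequences came from RefSeq (GRCm38.p6), where 2 of the 3 genes matched. The study's data on other diets were not analysed here, and a few genes that the rule names are not reported here.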

Additional observations from a re-analysis of the deposited data

Results flagged for a closer look

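One liver stood far from the other 3 of its group in 8 of 104 groups of 4 livers examined, and chance alone gives about 1 in 20, or 5.2. None of the 8 was a value of Gldn, Shc2 or Tmem71. Nus1 was at 82.0 CPM in WT replicate 1, against 89.7 to 90.5 CPM in the other WT livers. Ank3 was at 31.1 CPM in WT replicate 2, against 19.8 to 20.5 CPM. Dag1 was at 105 CPM in N-LKO replicate 3, against 92.8 to 94.7 CPM. Furin was at 179.98 CPM in WT replicate 2, against 157.8 to 159.9 CPM. Gab1 was at 10.5 CPM in WT replicate 3, against 13.5 to 14.1 CPM. Ttpa was at 939 CPM in WT replicate 1, against 874 to 883 CPM. Shisa3 was at 1.53 CPM in N-LKO replicate 3, against 1.12 to 1.19 CPM. Gpx3 was at 3.70 CPM in WT replicate 4, against 5.45 to 5.69 CPM.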

How the results depend on the processing

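Gldn and Shc2 had no value with at least 10 counts in every mouse, since WT livers held fewer. In the other 15 settings the log2 fold change of each stayed positive, as did that of Tmem71 in all 16. Leaving out 1 mouse gave 7.21 to 7.58 for Gldn, 4.23 to 5.03 for Shc2 and 1.91 to 2.18 for Tmem71. A prior count of 0.5 gave a log2 CPM difference of 7.18 for Gldn and 4.36 for Shc2, against 6.64 and 3.26 with 2. The genes called in all were 98 with at least 10 counts in every mouse (19 lower), where fewer genes were tested, and 371 with DESeq2 (248 higher, 123 lower); the cause of the latter was not tested. Leaving out 1 mouse gave 71 to 173 called, 60 to 124 higher and 11 to 49 lower, with fewer samples. Of the neighbours 1 was called with the replicate block, with DESeq2 and without WT replicate 1, so 0 to 1 over the mice left out. Of the related genes 6 were called with DESeq2, and 2 or 3 with 1 mouse left out. Signs turned for Shc1 (-0.00751 with library totals, -0.0119 to 0.0567 over all settings, -0.00855 without WT replicate 4), for Phf20l1 (-0.0104 to 0.122 with 1 mouse left out) and for Bmp1 (-0.104 to 0.00267 with 1 mouse left out). Chosen after seeing the data, leaving Wt1 out of the mesothelial sum turned the difference of means from 1.64 to -0.0736 CPM, and leaving Spp1 out of the lipid-associated macrophage sum moved it from 52.8 to 8.6 CPM. The replicate block left 131 genes called and the library-number replicate block 113. Deviations of livers with the same title number correlated at -0.085 to 0.062, and those with the same library number at -0.0092 to 0.17, so the numbers were not taken to pair mice. At this depth WT levels of Gldn and Shc2 were not measurable above a few reads.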
